A study of Mus musculus with 8 samples.

Results

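Cells mend damaged DNA through several dedicated pathways and stop dividing while they do so. The 38 genes described here carry out that work, and each was chosen by name for its known function: 8 act in homologous recombination, 4 in the Fanconi pathway, 2 in mismatch repair, 10 in excision repair, 4 in end joining and 10 in break sensing and the damage checkpoint. All 38 were found among the 18904 genes of the Meis1 table and among the 17348 genes of the Prep1 table, and all 38 passed the filters on low counts in both. The RNA came from whole C57BL/6 mouse embryos at embryonic day 11.5. In 1 comparison, 3 libraries labelled Meis1 knockout (KO) stood against 3 libraries of their wild-type (WT) littermates. In the other, a Prep1 hypomorph library stood against 1 library of WT littermates, Prep1 being the protein of the gene listed as Pknox1. Meis1 and Prep1 are DNA-binding proteins of the TALE homeobox family, and the series asks what their loss does to transcription. The KO and hypomorphic alleles are not described in the sources used here, nor is it given whether a library holds 1 embryo or a pool, so the spread between libraries may be partly technical.

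The recombination, Fanconi and checkpoint proteins are needed most in cells that are copying their DNA, and a mouse embryo at this stage is growing fast. Recombination copies the lost sequence from the sister chromatid, end joining seals broken ends directly, and the Fanconi proteins unlock strands that have been tied together. Mismatch and excision repair replace wrong or damaged bases in a strand, while the kinases ATM and ATR halt the cell cycle until repair is done. In mice the loss of Brca1, Brca2, Palb2, Rad50 or Chek1 stops development before birth, and the loss of Lig4 kills newborn neurons.

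The Meis1 table holds group means, and the whole counts of each library were worked back from them. They could not be tied to the sample codes, so a, b and c stand for the libraries of a group in order of size. The total over genes whose counts could be worked back was between 4222752 and 6194057 in these 6 libraries. It was 4000984 (WT) and 5893401 (hypomorph) over all genes of the Prep1 pair. Levels are given as CPM, counts scaled to a common library size, with TMM factors that even out differences in library composition. Sample values are listed in the order a, b, c. Markers of neural, heart, liver, blood, vessel, limb, epithelial, crest and macrophage cells were all detected. Meis1 read 93.2, 88.6 and 113.2 CPM in the WT libraries and 87.1, 68.6 and 71.5 CPM in the KO libraries, so the KO libraries were lower but kept most of its reads. Without the position of the deletion, reads from the whole of Meis1 do not check the KO labels. Pknox1 had 129 counts in the Prep1 WT library and 14 in the hypomorph. KO a stood apart in 14 genes induced by low oxygen, whose summed level was 7974 CPM there and between 1745 and 2402 CPM in the other Meis1 libraries. For genes below that had KO a well apart from the other libraries, the value without it is also given.

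The promoters of 4 members are shown because they cover the motifs searched and the members that the results turn on most. Each line holds the 300 bases from 250 before to 50 after the start of transcription, read in the direction of the gene from RefSeq on GRCm38.p6. Palb2 (chr7:122132897-122133196, minus strand) had the largest difference between the Meis1 groups. Msh6 (chr17:87974800-87975099, plus strand) and Mdc1 (chr17:35841248-35841547, plus strand) were highest in WT a and lowest in WT b. Xrcc6 (chr15:82016119-82016418, plus strand) holds both motifs. Capitals mark TTTCCCGC, the form of site bound by E2F factors at genes of the dividing cell, and TGACAG, the core bound by Meis and Prep proteins, each on either strand (GCGGGAAA and CTGTCA).
Palb2: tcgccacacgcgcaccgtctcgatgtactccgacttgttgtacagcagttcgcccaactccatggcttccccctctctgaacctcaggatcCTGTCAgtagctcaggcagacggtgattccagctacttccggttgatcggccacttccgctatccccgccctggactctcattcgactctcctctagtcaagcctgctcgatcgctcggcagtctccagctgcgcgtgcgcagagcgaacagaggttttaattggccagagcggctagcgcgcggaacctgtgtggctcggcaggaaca
Msh6: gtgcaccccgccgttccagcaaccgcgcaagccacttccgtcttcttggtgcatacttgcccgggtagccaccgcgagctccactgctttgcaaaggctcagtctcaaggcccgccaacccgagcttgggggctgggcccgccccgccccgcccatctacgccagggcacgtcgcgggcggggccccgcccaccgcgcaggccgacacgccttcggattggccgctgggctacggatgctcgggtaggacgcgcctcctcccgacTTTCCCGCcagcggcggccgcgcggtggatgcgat
Mdc1: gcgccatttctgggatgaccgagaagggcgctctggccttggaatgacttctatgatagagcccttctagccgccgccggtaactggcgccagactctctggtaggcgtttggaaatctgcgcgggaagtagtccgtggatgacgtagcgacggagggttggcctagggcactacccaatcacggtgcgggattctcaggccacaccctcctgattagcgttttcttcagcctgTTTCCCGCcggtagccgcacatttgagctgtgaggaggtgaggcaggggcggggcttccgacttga
Xrcc6: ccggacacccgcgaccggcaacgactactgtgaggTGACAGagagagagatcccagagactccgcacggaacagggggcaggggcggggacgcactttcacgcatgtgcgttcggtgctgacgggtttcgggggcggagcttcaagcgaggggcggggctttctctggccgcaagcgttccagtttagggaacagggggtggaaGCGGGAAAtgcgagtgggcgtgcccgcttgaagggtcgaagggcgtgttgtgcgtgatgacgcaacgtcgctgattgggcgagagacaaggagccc
A promoter was listed for 30 of the 38 members, in 34 windows. TTTCCCGC lay in 6 of these windows, those of Bard1, Brca2, Chek2, Mdc1, Msh6 and Xrcc6, and in 1.07% of the 32851 windows of all genes. TGACAG lay in 6, those of Lig1, Palb2, Parp1, Trp53bp1, Xrcc1 and Xrcc6, and in 19.2% of all windows. The motifs share no bases with each other in the lines shown. A match describes the letters and is not a binding site, and no binding was measured in these samples.

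Per length of exon, the members spanned a wide range of WT levels. The highest level in the Meis1 WT libraries was that of Apex1, the nuclease that cuts at sites without a base, at 231.8 CPM per kilobase. H2afx, the histone variant that is phosphorylated around breaks, followed at 128.3 CPM per kilobase, Parp1, the sensor of nicked DNA, at 71.4, Lig1, the ligase of replication and excision repair, at 55.1, and Msh6 at 36.0. At the low end were Atr at 2.34, Palb2 at 2.63, Prkdc at 2.78 and Xrcc2 at 2.99 CPM per kilobase. The order was much the same in the Prep1 WT library, with a Spearman correlation of 0.96 across the 38 genes, which share their exon lengths between the tables. Apex1 and H2afx changed places there, at 146.2 and 150.2 CPM per kilobase. The tables were normalised separately, and no test was made between them. The exon lengths join all annotated transcripts of a gene, so levels per length depend on that annotation. Apex1 also shares 1070 bases of its span with Tmem55b, a gene of similar WT mean on the other strand. How far the reads of Apex1 and Tmem55b mix was not tested.

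**Figure D1:**
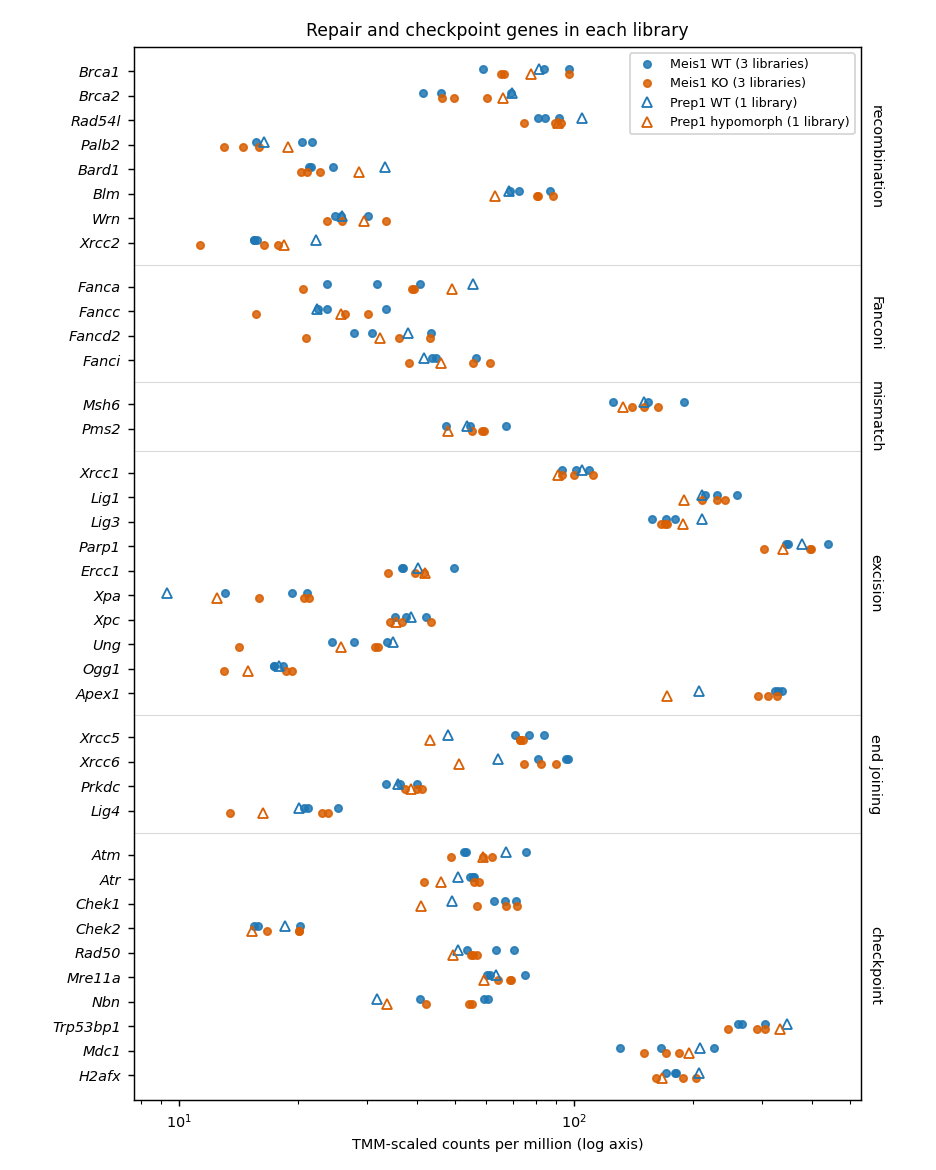
TMM-scaled CPM (horizontal log axis) of the 38 genes, by role, in the 3 Meis1 WT and 3 Meis1 KO libraries (filled circles) and in the Prep1 WT and hypomorph libraries (open triangles). The filled circles of the Meis1 groups overlap for every gene, and Apex1 sits lower in the Prep1 pair (207.8 and 172.6 CPM) than in the Meis1 libraries. The Meis1 CPM leave out 12 genes whose counts were not settled, and the tables were scaled separately.

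The repair and checkpoint genes read at similar levels in embryos labelled Meis1 KO and in their WT littermates. In the quasi-likelihood test of edgeR 0 of 38 members passed an adjusted p of 0.05, as did 0 of 14436 genes (0%), and the adjusted p of every member was 0.9999. At an unadjusted p under 0.05 there were 209 genes (1.45%) and 0 members. DESeq2 called 1 gene of all tested and limma-voom 0, again with 0 members. The 95% interval of the difference lay within 2-fold for 38 of 38 members and within 1.5-fold for 30, so that larger differences lie outside these intervals. The groups overlapped for 38 of 38 members, while they did not overlap for 5.68% of all genes. For 32 members the SD over the WT libraries exceeded the distance between the group means. The log2 difference, KO minus WT, was below 0 for 24 members and above 0 for 14, against 50.2% below 0 over all genes. The members' median was -0.041 (all genes -0.001), and it was 0.049 without WT a and 0.011 without KO a. In the authors' deposited table the 38 members had an adjusted p of 1, and the lowest p was 0.155. Because whole embryos were sampled, fewer cells of a type and less RNA per cell cannot be told apart in these levels.

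**Figure D2:**
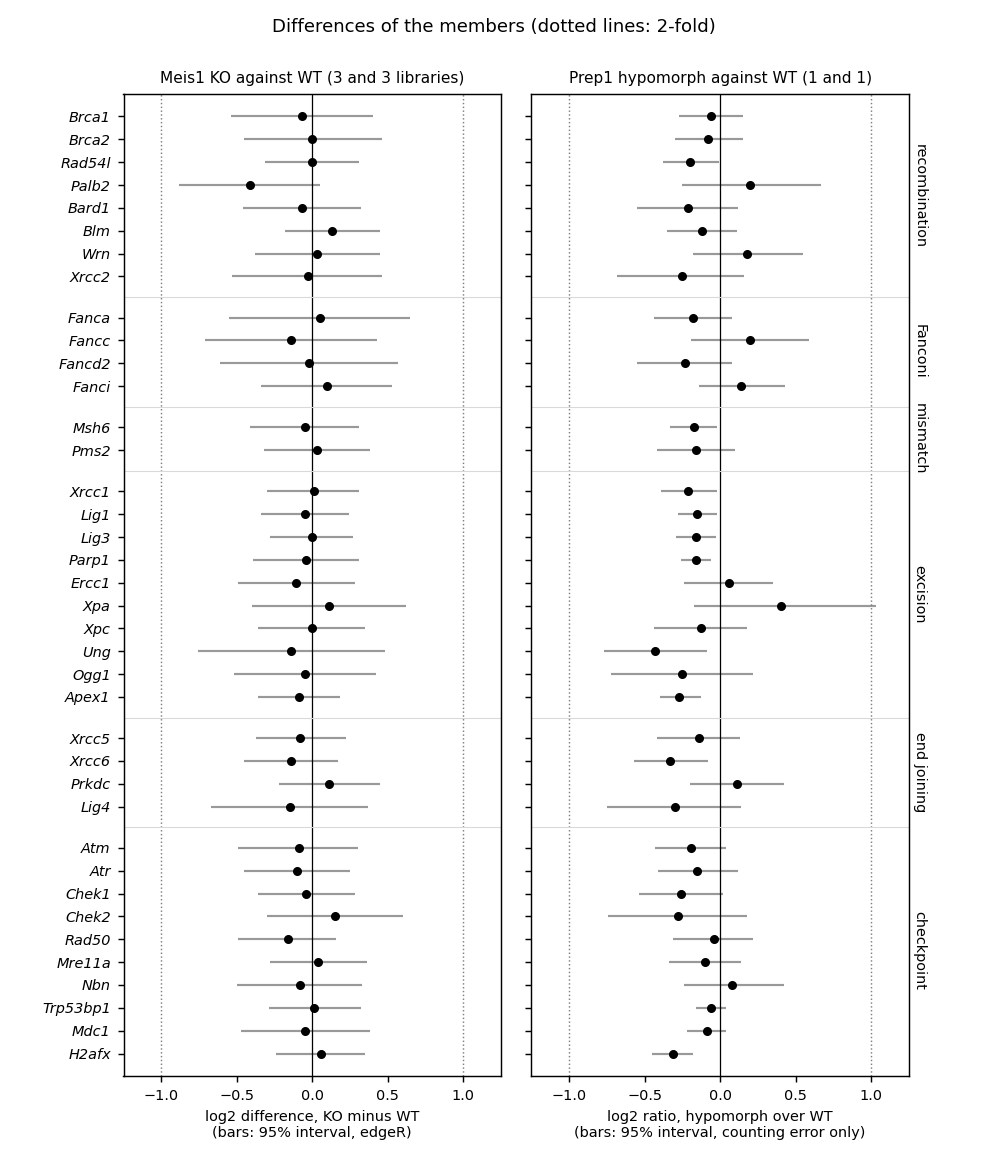
Left, log2 difference of each member, KO minus WT over 3 and 3 Meis1 libraries, with a 95% interval worked out from edgeR's test. Right, log2 ratio of the Prep1 hypomorph library over its WT library, with a 95% interval for counting error only. Every Meis1 interval includes 0 and stays inside the dotted 2-fold lines, whereas 10 of the Prep1 intervals lie below 0.

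Among the recombination genes, Palb2 had the smallest p of all members. Palb2, which joins BRCA1 to BRCA2, lies on chromosome 7 at 129250776 to 129276460 in mm9, the build named in the submitters' processing notes and used for all gene positions from here on. It read 21.7, 15.7 and 20.5 CPM in WT and 14.5, 13.0 and 16.0 CPM in KO. Every KO library lay below WT a and WT c, but KO c was above WT b, so the groups overlapped. The WT mean was 19.3 ± 3.17 CPM and the KO mean 14.5 ± 1.52 CPM (SD, n = 3 each). The log2 difference was -0.41 (SE 0.21, 95% interval -0.88 to 0.05), with an unadjusted p of 0.0779 in edgeR's test and a Benjamini-Hochberg adjusted value of 0.9999. The difference ran from -0.54 (without WT b) to -0.32 (without WT a) when libraries were left out in turn. Without WT b, the lowest WT library, the unadjusted p was 0.0373 in edgeR's test. In that setting 187 of 14679 genes had an unadjusted p under 0.05, and 0 genes passed the adjusted threshold.

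Blm, a helicase that dissolves joined recombination intermediates (chromosome 7, 87599879 to 87680005), read 87.2, 72.5 and 68.8 CPM in WT and 81.2, 88.5 and 80.6 CPM in KO. The KO values were close together and WT a lay among them, with only WT b and WT c lower. The log2 difference was 0.13 (SE 0.14). Brca1, which steers breaks towards recombination, read 97.0, 59.0 and 84.1 CPM in WT and 65.3, 66.5 and 97.0 CPM in KO. Its spread within each group, 19.3 CPM in WT and 18.0 CPM in KO (SD, n = 3), exceeded the distance between the means of 80.0 and 76.2 CPM. Brca2, a core recombination gene, read 69.4, 41.4 and 46.1 CPM in WT and 49.8, 46.3 and 60.4 CPM in KO, with a log2 difference of 0.00 that became 0.26 without WT a and -0.14 without WT b. WT a was again the highest library and WT b the lowest. Bard1, the partner of BRCA1 in a ubiquitin ligase, read 24.5, 21.6 and 21.4 CPM in WT and 21.1, 20.4 and 22.8 CPM in KO. Rad54l, a motor protein that remodels DNA during recombination, read 84.6, 81.0 and 91.5 CPM in WT and 74.6, 93.0 and 89.5 CPM in KO. Both ranges were narrow, and KO a was the lowest library for Rad54l. Xrcc2, another recombination gene, was nearly level in WT, at 15.5, 15.5 and 15.8 CPM, and spread on both sides of that in KO, at 11.3, 17.8 and 16.4 CPM. The helicase gene Wrn read 25.7, 24.8 and 30.1 CPM in WT and 33.4, 25.9 and 23.7 CPM in KO, with KO a here the highest library. These 4 genes had log2 differences between -0.07 and 0.03. Without KO a the difference was 0.09 for Rad54l, 0.13 for Xrcc2 and -0.13 for Wrn, and the sign of Xrcc2 and Wrn turned.

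The 4 Fanconi genes varied more between libraries than they differed between groups. Fancc, part of the core complex that marks crosslinked DNA (chromosome 13, 63406017 to 63598586), read 33.4, 23.7 and 22.5 CPM in WT and 30.2, 15.7 and 26.4 CPM in KO. Fanci, a subunit of the pair that receives the ubiquitin mark (chromosome 7, 86536815 to 86595151), read 56.5, 43.8 and 44.8 CPM in WT and 55.4, 38.2 and 61.5 CPM in KO. In both genes KO b was the lowest of all 6 libraries and WT a stood well above the other WT libraries. The log2 difference was -0.14 (SE 0.26) for Fancc and 0.10 (SE 0.20) for Fanci. Fancd2, the partner of Fanci in that pair, read 43.4, 27.7 and 30.9 CPM in WT and 36.1, 21.0 and 43.2 CPM in KO. It too was lowest in KO b, and its log2 difference was -0.02. Fanca, another core complex gene, departed from the other 3, with 40.8, 23.7 and 31.7 CPM in WT and 20.6, 39.3 and 39.0 CPM in KO. Its lowest library was KO a, while KO b and KO c lay near WT a. Without WT a, Fancc, Fancd2, Fanca and Fanci had log2 differences of 0.06, 0.19, 0.25 and 0.22, and without KO c these were -0.21, -0.25, -0.09 and -0.05. Without KO a the difference of Fanca was 0.29, in place of 0.05.

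For the mismatch genes Msh6 and Pms2 the WT libraries spanned a wider range than the KO libraries. Msh6, which recognises wrongly paired bases (chromosome 17, 88374390 to 88390223), read 189.7, 125.4 and 154.3 CPM in WT and 140.1, 150.3 and 163.3 CPM in KO. Pms2, which cuts the strand that is to be corrected (chromosome 5, 144670833 to 144698178), read 67.5, 47.5 and 54.6 CPM in WT and 59.1, 55.2 and 58.4 CPM in KO. In both genes WT a was the highest and WT b the lowest of the 6 libraries, and the 3 KO libraries lay between them. The log2 differences were -0.05 (SE 0.16) for Msh6 and 0.03 (SE 0.16) for Pms2. The SD over the WT libraries was 32.2 CPM for Msh6, against 11.6 CPM over the KO libraries.

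The 10 excision repair genes held the most abundant members, and 0 of 10 passed the test. Apex1 (chromosome 14, 51544643 to 51546814) read 328.2, 323.1 and 337.4 CPM in WT and 292.6, 310.0 and 327.8 CPM in KO. KO c lay within the WT range, and KO a and KO b lay below it. Its means of 329.6 ± 7.25 CPM and 310.1 ± 17.6 CPM (SD, n = 3 each) gave a log2 difference of -0.09 with the interval from -0.36 to 0.18. Ercc1, a subunit of the nuclease that cuts beside a lesion (chromosome 7, 19930127 to 19941873), read 36.9, 36.8 and 49.6 CPM in WT and 41.7, 33.8 and 39.7 CPM in KO. WT c was the highest library, and the difference of -0.11 (SE 0.18) became 0.05 without it. Ung, the glycosylase that removes uracil (chromosome 5, 114580395 to 114589332), read 33.6, 24.4 and 27.7 CPM in WT and 14.2, 31.9 and 31.4 CPM in KO. KO a lay far below all other libraries, and KO b and KO c lay inside the WT range. The log2 difference was -0.14 (SE 0.28), and it was 0.14 without KO a. Its highest library was 2.36 times its lowest, the widest span of the 38 members.

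Parp1 also had its lowest value in KO a, with 440.2, 348.0 and 345.0 CPM in WT and 303.2, 399.0 and 396.7 CPM in KO. WT a was the highest library, and the difference of -0.04 became 0.07 without KO a. Lig3, the ligase partnered with XRCC1, varied least, with its highest library 1.14 times its lowest. Lig1 read 259.6, 215.4 and 230.6 CPM in WT and 211.0, 230.8 and 240.7 CPM in KO, and its highest library was WT a and its lowest KO a, as for Parp1. Ogg1, the glycosylase of oxidised guanine, read 17.4, 18.3 and 17.4 CPM in WT and 13.0, 18.7 and 19.3 CPM in KO. KO a again lay below the rest. Xpa, which verifies bulky lesions, ran the other way in WT, with 13.1, 21.1 and 19.3 CPM, and read 21.3, 20.8 and 16.0 CPM in KO. WT a was its lowest library and KO a its highest. The scaffold gene Xrcc1, Lig1, Ogg1, Xpa and Xpc, which finds bulky lesions, had log2 differences between -0.05 and 0.11. Without KO a the difference was 0.10 for Ogg1, in place of -0.05, 0.03 for Xpa, in place of 0.11, and 0.00 for Lig1.

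Among the end joining genes, Xrcc6 and Xrcc5 encode the Ku ring that slides onto broken ends. Xrcc6 (chromosome 15, 81818265 to 81870515) read 96.5, 81.2 and 95.4 CPM in WT and 82.7, 75.0 and 90.1 CPM in KO. Its log2 difference was -0.14 (SE 0.14). KO b was the lowest library, and KO a and KO c lay between WT b and WT c. Xrcc6 shares 41340 bases of its span with Pppde2 on the other strand. The shared exons were not measured and whether reads were counted by strand is not stated, so how far the reads of such a pair mix was not tested. Other members overlap a gene on the other strand too, with the same limit. Among them are Fancc (21388 bases shared with 2010111I01Rik), Fanca (1446 with Zfp276), Fanci (1475 with Polg) and Ogg1 (945 with Camk1). Prkdc, the kinase that Ku recruits (chromosome 16, 15637959 to 15842332), read 40.0, 33.5 and 36.2 CPM in WT and 40.0, 37.4 and 41.3 CPM in KO, a log2 difference of 0.11 (SE 0.15). WT a lay among the KO values, with WT b and WT c below them. Lig4, the ligase of this pathway, read 21.2, 25.3 and 20.8 CPM in WT and 13.5, 23.8 and 23.1 CPM in KO. As with Ung, KO a lay alone below the rest, and the difference of -0.15 became 0.06 without it. Xrcc5 read 77.2, 71.0 and 84.1 CPM in WT and 72.9, 73.0 and 74.2 CPM in KO, the KO values lying close together inside the WT range. Its log2 difference was -0.08 (SE 0.13).

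Of the checkpoint genes, Rad50 and Chek2 had the smallest p. Rad50, an arm of the complex that holds broken ends together (chromosome 11, 53463021 to 53520821), read 70.5, 53.8 and 63.5 CPM in WT and 55.7, 55.0 and 56.9 CPM in KO. The KO libraries agreed closely and lay between WT b and WT c. The log2 difference was -0.16 (SE 0.15), with an interval from -0.49 to 0.16. Its partners in the complex are Mre11a, a nuclease, and Nbn, which brings ATM to the break. Nbn read 60.5, 40.7 and 59.4 CPM in WT and 54.2, 42.3 and 55.3 CPM in KO. WT b and KO b were each the lowest of their group, and the shared letter does not pair them. Mre11a and Nbn had log2 differences of 0.04 and -0.08. Chek2, the kinase that ATM activates (chromosome 5, 111269036 to 111303152), read 20.3, 15.5 and 15.9 CPM in WT and 16.7, 20.2 and 20.1 CPM in KO. WT a and KO b and c were level, above the other 3 libraries, and the log2 difference was 0.15 (SE 0.20). Atm read 75.6, 53.3 and 52.7 CPM in WT and 62.1, 49.0 and 58.8 CPM in KO. Atr was level in WT, at 55.8, 54.7 and 55.7 CPM, and read 57.4, 41.8 and 55.9 CPM in KO. In both kinase genes KO b was the lowest library. Chek1, the kinase that ATR activates, was lowest in KO b too, with 71.5, 62.9 and 67.0 CPM in WT and 67.5, 56.7 and 71.9 CPM in KO. The log2 differences of Atm, Atr and Chek1 were -0.09, -0.10 and -0.04. Mdc1, which docks on the marked histone at a break, read 225.9, 130.6 and 166.4 CPM in WT and 171.2, 150.5 and 184.7 CPM in KO. It had the order of Msh6, with WT a highest and WT b lowest. H2afx itself read 180.4, 171.1 and 181.2 CPM in WT and 161.4, 203.8 and 189.2 CPM in KO, with KO libraries on either side of the WT range. Its log2 difference was 0.06, and that of Trp53bp1, which steers breaks towards end joining, was 0.01.

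Most members were high in WT a and low in WT b, while the KO libraries were more mixed. WT a was the highest WT library for 28 of 38 members, where it was so for 37.5% of all genes, and WT b was the lowest WT library for 28 members, against 37.0% of all genes. In KO the lowest library was KO a for 18 members and KO b for 16, against 38.1% and 34.3% of all genes. KO c was the highest KO library for 18 members and the lowest for 4, against 27.2% and 27.6% of all genes. Their summed level was 3694, 3028 and 3265 CPM in WT and 3051, 3264 and 3457 CPM in KO. The range within WT thus enclosed all 3 KO libraries. A list of 20 proliferation genes, among them Mki67, Top2a and the Mcm helicase genes, summed to 7099, 5070 and 6621 CPM in WT and 6386, 5459 and 6853 CPM in KO. It too was highest in WT a and lowest in WT b, and its part in the members' levels was not tested. Markers of other tissues differed between the WT libraries too. The liver genes Alb and Afp read 7.63 and 62.0 CPM in WT a, 86.9 and 155.9 CPM in WT b and 79.9 and 221.6 CPM in WT c. The heart gene Myh6 read 253.8, 94.3 and 187.3 CPM, but the heart gene Tnnt2 did not share that order, at 95.1, 98.4 and 108.7 CPM. Their part in the members' levels was not tested. Of the KO libraries KO a had the lowest summed level of the members and the highest of the low-oxygen list, whose part was likewise not tested. Over single members KO a and KO b were nearly even, with a median log2 ratio of KO b over KO a of 0.014 and 18 of 38 below 0. The Fanconi and checkpoint medians were lower in KO b than in KO a. By role, the median deviation from the WT mean reached 0.36 on the log2 scale in WT a for the Fanconi genes and -0.49 in KO b, the widest swing of the 6 roles. For end joining genes it stayed between -0.12 and 0.04. In the authors' deposited table the ratio of the variance within a group to the variance fitted for its mean was above 1 for 10 members in WT and 6 in KO, against 16.4% and 17.3% of all genes.

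**Figure D3:**
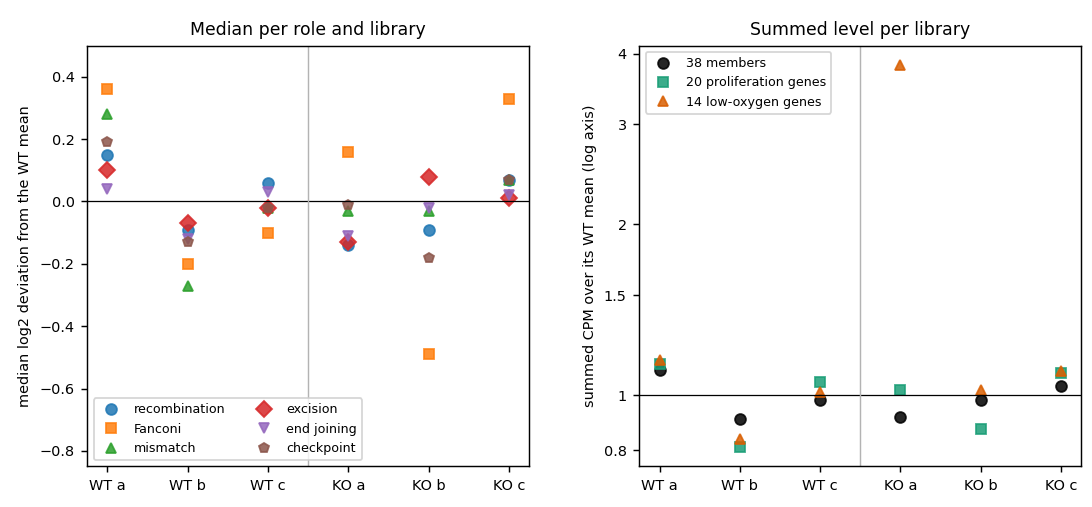
Left, median log2 deviation from the WT mean of the members of each role in each Meis1 library; right, summed CPM over its WT mean (log axis) of the 38 members, of 20 proliferation genes and of 14 low-oxygen genes. WT a is high and WT b low for most roles and for the proliferation list, and the low-oxygen list stands apart in KO a alone.

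In the Prep1 comparison the hypomorph library read slightly lower than its WT library for most repair genes. No member passed 2-fold, where 341 of 13780 genes did (2.47%). The log2 ratio, hypomorph over WT, was below 0 for 30 members and above 0 for 8, against 49.6% below 0 over all genes, and 52% among genes with at least 100 counts. The members' median was -0.154, against 0.003 over all genes, and their summed level was 3301 CPM in WT and 2989 CPM in the hypomorph. Each group has 1 library, so there is no test, and the intervals given cover counting error only. Such an interval lay below 0 for 10 members (13.1% of all genes) and above 0 for 0 members (11.9% of all genes). The 10 were Rad54l, Msh6, Xrcc1, Lig1, Lig3, Parp1, Ung, Apex1, Xrcc6 and H2afx, 6 of them excision genes. Whether an interval clears 0 also depends on the number of counts, for which the share over all genes is not matched. Lig1 (836 and 1126 counts) and Atr (202 and 273 counts) both had a ratio of -0.15, and only the interval of Lig1 lay below 0. The excision median of -0.158 was close to that of all members. The 20 proliferation genes were all below 0 as well, with a median of -0.246, and their part in the members' levels was not tested. Low-oxygen genes were above 0 in 12 of 13, with a median of 0.292 and 7 counting intervals above 0. Alb read 14.9 CPM in WT and 100.7 CPM in the hypomorph (log2 ratio 2.73), Afp 108.3 and 259.9 CPM (1.26), Myh6 152.2 and 68.2 CPM (-1.15), and the embryonic globin gene Hbb-y had a ratio of 0.59. The neural genes Pax6 and Sox2 had ratios of -0.47 and -0.35, while the neural gene Elavl3 had a ratio of 0.13 (interval -0.02 to 0.28). The libraries thus differed in markers of several tissues, and the part of these markers and of the low-oxygen list in the members' values was not tested.

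The excision genes held both ends of the range. Ung had 138 counts in WT and 153 in the larger hypomorph library, or 34.8 and 25.8 CPM, a log2 ratio of -0.43 (interval -0.77 to -0.09). Xpa, which verifies bulky lesions, had 37 and 74 counts, or 9.32 and 12.5 CPM, a log2 ratio of 0.40 (interval -0.17 to 1.03). Ung was therefore lower in the hypomorph beyond counting error, and Xpa rested on too few counts to tell. Xpa also shares 17057 bases of its span with the far more abundant Ncbp1 on the other strand, with the same limit as for Xrcc6. Apex1 read 207.8 and 172.6 CPM (log2 ratio -0.27) and Parp1 378.4 and 338.7 CPM (log2 ratio -0.16). The median ratio of the 10 excision genes was -0.158.

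Among the end joining genes Xrcc6 read 64.2 CPM in WT and 51.2 CPM in the hypomorph, a log2 ratio of -0.33 (interval -0.57 to -0.08). Lig4 read 20.2 and 16.3 CPM, a ratio of -0.30 (interval -0.75 to 0.14), while Prkdc read 35.8 and 38.6 CPM, a ratio of 0.11. Ku and ligase transcripts thus had the lower values in the hypomorph and the kinase did not, and the counting interval excludes 0 for Xrcc6 alone of these 4 genes. In the checkpoint group H2afx had 825 and 994 counts, or 207.8 and 167.3 CPM, a ratio of -0.31 (interval -0.45 to -0.18). Chek2 read 18.6 and 15.3 CPM, a ratio of -0.28 (interval -0.74 to 0.18). The histone gene was lower beyond counting error and the kinase gene, with 74 and 91 counts and a similar ratio, was not. Chek1 read 49.1 and 41.1 CPM, a ratio of -0.26 (interval -0.54 to 0.02), and Atm 67.3 and 58.8 CPM, a ratio of -0.19 (interval -0.43 to 0.04). The adaptor genes Mdc1 and Trp53bp1 had ratios of -0.09 and -0.06. Nbn, at 31.7 and 33.7 CPM, was the 1 checkpoint gene above 0.

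In recombination Xrcc2 read 22.2 CPM in WT and 18.5 CPM in the hypomorph (ratio -0.25, interval -0.68 to 0.16), and Bard1 read 33.3 and 28.6 CPM (ratio -0.21, interval -0.55 to 0.12). Palb2, the member with the lowest difference in Meis1 KO, read 16.4 and 18.9 CPM, a ratio of 0.20 (interval -0.25 to 0.67). In the Fanconi pathway Fancd2 read 38.0 and 32.3 CPM (ratio -0.23, interval -0.55 to 0.08) and Fancc 22.4 and 25.8 CPM (ratio 0.20, interval -0.19 to 0.59). The Fanconi genes were thus divided, with Fanca and Fancd2 lower and Fancc and Fanci higher in the hypomorph, each within counting error. Both mismatch genes were lower, Msh6 at 150.7 and 133.5 CPM (ratio -0.17, interval -0.33 to -0.02) and Pms2 at 53.7 and 48.0 CPM (ratio -0.16, interval -0.42 to 0.10).

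The size of the Prep1 shift can be set beside the spread between libraries of the same genotype. The median log2 ratio of the 38 members was -0.262 for WT b over WT a of the Meis1 series, with 35 members below 0. It was -0.182 for WT c over WT a and 0.097 for WT c over WT b. Between KO libraries it was between 0.014 and 0.120. The Prep1 median of -0.154 was smaller in size than 2 of these 6 medians, both of which include WT a, and larger than the other 4, which were 0.097, 0.014, 0.120 and 0.057.

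**Figure D4:**
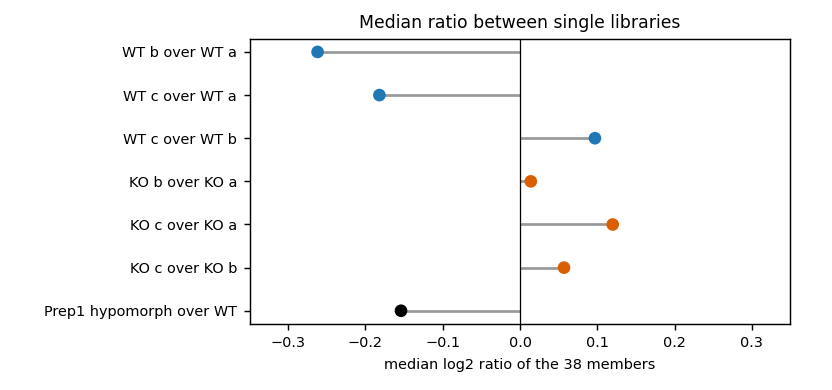
Median log2 ratio of the 38 members between single libraries (horizontal axis): 3 pairs of Meis1 WT libraries (blue), 3 pairs of Meis1 KO libraries (orange) and the Prep1 hypomorph over its WT (black). In size, the Prep1 value of -0.154 lies between the medians of WT c over WT a (0.182) and KO c over KO a (0.120). The sign within a genotype depends on the order of the libraries.

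A wider list held 110 repair genes outside the members. In the Meis1 test 107 of them were measured, 0 passed the adjusted or the unadjusted threshold, 35 were above 0 and 72 below 0, with a median of -0.058. The groups did not overlap for 7 of them, beside 5.68% of all genes. Those with the smallest p in each direction were Neil1, a glycosylase of oxidised bases, and Mus81, a nuclease of branched DNA, on the higher side, and Dclre1c, the end-trimming nuclease Artemis, and Helq, a helicase, on the lower side. Neil1 read 1.91, 5.66 and 4.03 CPM in WT and 6.38, 7.22 and 6.02 CPM in KO, a log2 difference of 0.74 (SE 0.37) at a low level. Dclre1c read 28.1, 19.4 and 25.4 CPM in WT and 14.5, 19.5 and 19.9 CPM in KO, with KO b and KO c just above WT b. Its log2 difference was -0.43 (SE 0.22). For Mus81 and Helq the log2 differences were 0.31 and -0.43. Without KO a they were 0.20 for Mus81, -0.27 for Helq and -0.30 for Dclre1c.

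In the Prep1 pair 106 genes of the wider list were measured and 0 passed 2-fold, with 33 above 0, 73 below 0 and a median of -0.134. The counting interval lay below 0 for 26 and above 0 for 3, beside 13.1% and 11.9% of all genes. The lowest ratio was that of Rpa3, a subunit of the protein that coats bare strands (66 and 61 counts, log2 ratio -0.67, interval -1.22 to -0.17). The highest ratio was that of Neil1 (19 and 42 counts, 0.53, interval -0.25 to 1.43). Dclre1c followed (80 and 171 counts, 0.51, interval 0.12 to 0.92). Xrcc4, the partner of LIG4, was next (16 and 33 counts, 0.43, interval -0.44 to 1.42). Dclre1c, at -0.43 in the Meis1 test and 0.51 here, thus had values of opposite sign in the 2 comparisons. By role the recombination genes of the wider list had the lowest median, -0.222 over 30 genes. The 7 end joining genes of the wider list went the other way from the 4 members of that role, with 5 above 0, 2 below 0, a median of 0.184 and 1 counting interval above 0, against a median of -0.221 over the 4 members.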

How the data were processed

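Reads of 68 bases were mapped and expression was estimated with RSEM on mm9, per the labels' protocols and the submitters' processing notes; the later tools and the filters are not stated in the sources used here. The authors' Meis1 table gives a signal, the mean of size-factor-scaled counts per group, with the log2 ratio of those means, a p-value and adjusted p-value, and a ratio of within-group to fitted variance, per the file headers. The Prep1 table gives estimated counts as deposited, in whole numbers with 0 written as 0.1, and an unscaled log2 ratio by the authors. That ratio is not corrected for the larger hypomorph library. It is above 0 for every member, from 0.15 (Ung) to 1.0 (Xpa), and so differs in sign from most of the scaled ratios given here.

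A test on counts per library was planned, and the Meis1 table held means. Since a mean combines 3 whole counts in fixed steps and is printed to 15 digits, the counts were worked back. A single set of counts was possible for 18896 (WT) and 18892 (KO) of 18904 genes. The 12 genes not settled were left out and include no member. With wrong steps 0% of 1500 genes per group had a solution. As a check, the fitted variance that follows from these counts lay within 10% of that of genes of like mean for 94.7% (WT) and 96.0% (KO) of genes. The entries number 18941, as 37 repeat a gene.

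The Meis1 test was edgeR 4.0.16 (robust quasi-likelihood, TMM, filterByExpr, Benjamini-Hochberg) in R 4.3.3 over 14436 genes, with DESeq2 1.42.0 and limma 3.58.1 beside it. The edgeR step was tested on simulated data, where it missed some of the genes changed 2-fold. For Prep1 the CPM were likewise scaled by TMM, log2 ratios had a prior count of 2 and genes needed 20 counts in the higher library, and 95% intervals are exact conditional binomial. The SE of a Meis1 difference is its size over the square root of edgeR's F statistic, and its 95% interval uses the t distribution. For differences near 0 both values in that ratio are near 0. Log2 deviations per library used CPM + 0.5. Exon lengths came from GENCODE on GRCm38 by gene ID, and promoters from RefSeq on GRCm38.p6 by symbol.

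Members and lists were chosen with earlier results of these data known. Values in every library are given for the 2 members of each role with the smallest p (Meis1) or the largest ratio (Prep1); for the wider list these are up to 2 and up to 3 genes in each direction. Other members, the p53 targets and the named low-oxygen values were chosen after their values were seen. Some genes of the wider list that qualified for naming are not reported here.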

Additional observations from a re-analysis of the deposited data

How the results depend on the processing

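No member passed the threshold in any of the 11 other settings of the Meis1 test, which comprised DESeq2 size factors, total counts, no filter on low counts, DESeq2, limma-voom and each library left out. The number of all genes called was 0 in these settings, except 1 with DESeq2. The members' median log2 difference ran from -0.106 (without KO c) to 0.049 (without WT a), so its sign depends on the libraries. The unadjusted p was under 0.05 for 113 (without WT c) to 534 (without KO b) of all genes, and for 1 member in 1 setting, Palb2 without WT b. The sign was the same in every setting with differences for 9 members (Palb2, Bard1, Blm, Apex1, Xrcc5, Xrcc6, Prkdc, Chek2 and Rad50). For limma-voom only calls were computed. In 25 members the sign turned when 1 library was left out. The other 4 had a difference that rounds to 0.00, and it fell on both sides of 0 when libraries were left out. Its range was -0.14 to 0.26 for Brca2, -0.06 to 0.09 for Rad54l, -0.06 to 0.04 for Lig3 and -0.11 to 0.07 for Xpc. With libraries left out in turn, the log2 difference ran from -0.28 to 0.09 for Brca1, -0.13 to 0.14 for Wrn, -0.16 to 0.13 for Xrcc2, -0.13 to 0.29 for Fanca, -0.33 to 0.10 for Fancc, -0.25 to 0.23 for Fancd2 and -0.05 to 0.28 for Fanci. It ran from -0.18 to 0.11 for Msh6, -0.08 to 0.17 for Pms2, -0.07 to 0.06 for Xrcc1, -0.11 to 0.03 for Lig1, -0.11 to 0.08 for Parp1, -0.18 to 0.05 for Ercc1 and -0.06 to 0.24 for Xpa. Among the next genes the range was -0.31 to 0.14 for Ung, -0.15 to 0.10 for Ogg1, -0.29 to 0.06 for Lig4, -0.19 to 0.10 for Atm, -0.19 to 0.03 for Atr, -0.11 to 0.05 for Chek1 and -0.02 to 0.15 for Mre11a. The remaining ranges were -0.25 to 0.03 for Nbn, -0.05 to 0.09 for Trp53bp1, -0.22 to 0.18 for Mdc1 and -0.02 to 0.14 for H2afx. With total counts Xrcc1 was at -0.01 in place of 0.01. In the Prep1 pair 0 members passed 2-fold in any of the 5 other settings, and the members' median ran from -0.154 to -0.131. Of all genes 966 passed 2-fold with no minimum count and 71 with at least 100 counts, against 341. No paired analysis was possible because the labels' codes pair no embryos and the recovered libraries could not be tied to them. The codes come in 2 forms, each found in both genotypes. Whether the forms mark a litter or batch is not stated, and values within each form could not be computed. The 3 libraries per group limit the Meis1 intervals to a log2 width of 0.27 to 0.62 on either side, and the lone Prep1 libraries give no measure of spread between embryos.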

Other observations

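The p53 protein switches on a set of genes when the damage checkpoint is active, and 14 of them were measured beside the repair genes. In the Meis1 test 0 of the 14 passed the threshold (0% of all genes), 8 were above 0 and 6 below 0, with a median log2 difference of 0.052 against -0.001 over all genes. Cdkn1a, the cell cycle inhibitor, read 13.8, 25.3 and 18.5 CPM in WT and 26.7, 21.2 and 21.6 CPM in KO. KO a was the highest library, and KO b and KO c lay inside the WT range. Eda2r, a death receptor gene, read 17.2 CPM in KO a and between 2.12 and 5.72 CPM in the other 5 libraries. Ccng1, a cyclin gene, read 128.5 CPM in KO a and between 66.5 and 98.0 CPM in the others. Not all targets were high in KO a. Trp53inp1 read 36.1 CPM there and between 42.4 and 66.4 CPM in the others. Btg2 was also lowest in KO a, at 23.5 CPM, and read between 29.6 and 34.2 CPM in the others. Without KO a the log2 difference was 0.15 for Cdkn1a, in place of 0.27, -0.37 for Eda2r, in place of 0.82, and -0.24 for Ccng1, in place of 0.12. In KO a the 14 low-oxygen genes stood apart, and their part in these values was not tested. In the Prep1 pair 13 of the p53 targets were measured, with 6 above 0, 7 below 0 and a median log2 ratio of -0.004. Bax, which drives cell death, read 65.2 CPM in WT and 47.0 CPM in the hypomorph, for a log2 ratio of -0.47 (counting interval -0.72 to -0.22). Sesn1, a stress response gene, read 23.7 and 32.7 CPM, for a ratio of 0.46 (interval 0.10 to 0.83).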
